A study of Homo sapiens with 15 samples.

Results

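The cadherin and protocadherin genes of MelJuSo melanoma cells were taken by gene name alone, as protein-coding genes of GENCODE release 29 called PCDH, or CDH with a digit next. This gave 89 of 19940 protein-coding genes, out of 58721 annotated genes of every kind. There were 23 CDH genes, 13 non-clustered PCDH genes, 15 PCDHA, 16 PCDHB and 22 PCDHG genes. On hg38 the PCDHA genes span chr5:140786136-141012347, the PCDHB genes chr5:141051135-141249365 and the PCDHG genes chr5:141330571-141512981. All 15 PCDHA and all 22 PCDHG genes share constant exons with others of their cluster in this annotation, and none of the 16 PCDHB genes does. Reads in shared exons were divided among genes by RSEM's estimation, so sums over a cluster are given first and single PCDHA and PCDHG genes are less certain. PCDHB genes resemble each other in sequence, and their reads may be divided in the same way.

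Cadherins are calcium-dependent adhesion proteins that span the cell membrane, and in classical cadherins the extracellular repeats bind the same cadherin on the neighbouring cell while the cytoplasmic tail holds p120- and beta-catenin and, through alpha-catenin, actin. Protocadherins share the extracellular repeats but not the catenin-binding tail. Their clustered members, PCDHA, PCDHB and PCDHG, lie in a row on chromosome 5, where each variable exon has a promoter of its own. In neurons these promoters are chosen in varying combinations, and the resulting surface code is known for self-avoidance of neurites. In the melanocyte lineage, E-cadherin (CDH1) is known to join melanocytes to keratinocytes, and melanomas often carry N-cadherin (CDH2) in its place.

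MelJuSo, a human melanoma cell line, was sequenced as total RNA in 15 libraries, with 3 replicates (A, B and C) of each of 5 derived lines. Guided lines carried 5xALFA-dCas12a-VP64, a nuclease-dead Cas12a with an activation domain and a tag, together with 3 guides against CD4 and either nanobody-p65 or nanobody-VP64, which binds the tag. The matching p65 and VP64 lines without guides carried the same dCas12a-VP64 and nanobody. The line without an activation domain carried 5xALFA-dCas12a, which lacks VP64, with the bare nanobody and no guides, so the unguided p65 and VP64 lines differ from it in both components. All lines thus hold dCas12a and a nanobody, and unmodified MelJuSo cells were not analysed here. Each group is 1 line, the labels do not say whether A, B and C were grown apart, and p-values may therefore measure technical spread only. In RNA from whole cultures, fewer cells of a kind and less RNA per cell cannot be told apart.

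Libraries held 15643706 to 23072513 expected counts and 19659 to 20632 genes with a count. CD4, the targeted gene, had 937.57 to 1035.45 TPM in the p65 line with guides and 899.58 to 953.05 TPM in the VP64 line with guides. It had 4.88 to 5.61 TPM in the p65 line without guides, 3.94 to 4.69 TPM in the VP64 line without guides and 0.53 to 2.16 TPM without an activation domain. The melanocyte markers SOX10 (131 to 218 TPM by line) and S100B (36.8 to 171 TPM) were high, and the melanocyte antigen MLANA was near 0 (0.03 to 0.207 TPM). HBB, a red cell gene, was at 0 in all libraries.

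Of the 89 members, 49 passed the minimum-count filter of the gene-level test and 40 did not. The 49 were 9 CDH genes, 9 non-clustered PCDH genes, 11 PCDHA, 13 PCDHB and 7 PCDHG genes. They are the members with enough reads and not all members, and a gene that passed through 1 high line had to differ, so counts over them are descriptions. The 40 others reached at most 0.52 TPM in any library. They include CDH5 of endothelium, CDH6, CDH13, CDH16, PCDH8 and PCDH18, and CDH9, PCDH15 and PCDHB1 had no count at all. In TPM, which is per length, 24 members averaged at least 1 TPM in the p65 line with guides, 24 in the VP64 line with guides, 17 in the p65 line without guides, 20 in the VP64 line without guides and 15 without an activation domain. CDH2 led with 28.3 TPM in the line without an activation domain, ahead of PCDHGC3 at 24.3 TPM and PCDH1 at 15.7 TPM. In the p65 line with guides PCDHGC3 (28.8 TPM) came first, then CDH2 (21.3 TPM) and PCDHB5 (20.8 TPM).

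The PCDHB sum was higher in guided lines than in every other line, and the line without an activation domain was the lowest. Its libraries A, B and C summed to 109, 113 and 101 CPM (counts scaled to 1000000 per library) in the p65 line with guides and to 96.8, 98.4 and 91.9 CPM in the VP64 line with guides. Without guides they summed to 45.3, 45.9 and 48.4 CPM in the p65 line and to 53.2, 51.9 and 51.7 CPM in the VP64 line, and without an activation domain to 28.8, 28.0 and 25.9 CPM. The 5 lines did not overlap. Guides went with a PCDHB sum 2.32 times as high in p65 lines and 1.83 times as high in VP64 lines, and the activation domains without guides with sums 1.69 (p65) and 1.90 times (VP64) that of the line lacking them.

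The PCDHA sum had the same guided-over-unguided order with smaller ratios. It came to 76.1, 75.4 and 69.5 CPM in the p65 line with guides and to 62.1, 60.2 and 63.9 CPM in the VP64 line with guides. It came to 46.3, 45.6 and 42.5 CPM in the p65 line without guides, to 41.2, 46.3 and 44.7 CPM in the VP64 line without guides and to 30.4, 30.4 and 29.6 CPM without an activation domain. The unguided p65 and VP64 libraries overlapped and the other groups stood apart. The guided sum was 1.64 times the unguided sum in p65 lines and 1.41 times in VP64 lines, while the unguided sums were 1.49 (p65) and 1.46 times (VP64) that of the line without an activation domain.

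The PCDHG sum differed from both: with guides it was 105, 104 and 93.6 CPM in the p65 line, against 128, 144 and 136 CPM in the VP64 line, which was the highest. Without guides it was 74.7, 77.2 and 78.6 CPM in the p65 line and 88.5, 87.4 and 86.1 CPM in the VP64 line, and it was 87.9, 91.9 and 89.1 CPM in the line without an activation domain. Here the unguided VP64 libraries overlapped those without an activation domain, and the unguided p65 libraries lay under both. The ratio of guided to unguided sums was 1.31 in p65 lines and 1.56 in VP64 lines, and that of p65 to VP64 with guides was 0.739. With 3 libraries a group an exact permutation test of 1 sum cannot go below 0.10, so the sums are given by their ratios and overlap, and tests by gene.

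**Figure D1:**
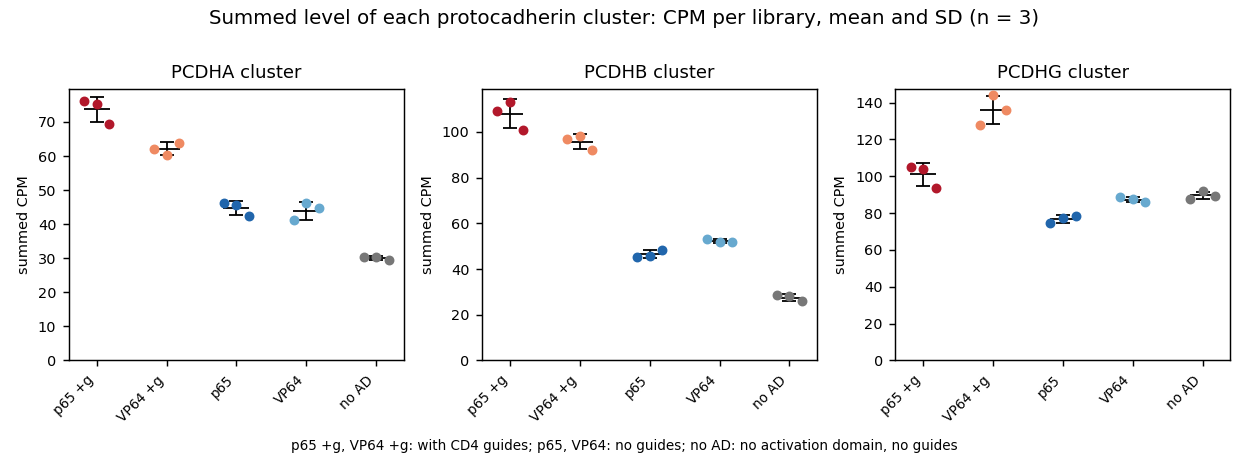
Summed CPM of the PCDHA, PCDHB and PCDHG genes in each of the 15 libraries, by line (points, libraries; black bars, mean and SD of 3). The PCDHB libraries lie at 91.9 to 113 CPM in guided lines and at 25.9 to 53.2 CPM in the others, and the PCDHG sum is highest in the VP64 line with guides.

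Each clustered variable exon has its own promoter, and a short element with the core CGCT is known in most of them as the conserved sequence element. The windows here are shown because most PCDHA and PCDHB genes with a promoter in the table carry the same letters at this element, those that rose and those that were not called alike. They are 30 bases on the plus strand of GRCh38.p14 from the RefSeq promoter table (250 bases before to 50 after the start), and the table matched 70 of the 89 members and 47 of the 53 clustered ones. Capitals mark the searched motif, the commonest run of letters around the core in each cluster's promoters, which was GATGTCGCT for PCDHA, GGTGGCGCT for PCDHB and GCGCCGCTGT for PCDHG, each holding the core CGCT; PCDHGA11 shows the core alone.
PCDHA5, chr5:140821542-140821571: ttcatccacatGATGTCGCTggacaccgga
PCDHA10, chr5:140855841-140855870: taaagccaccgGATGTCGCTgtcgtccaca
PCDHA4, chr5:140806979-140807008: tggagccacatGATGTCGCTctttaccaca
PCDHB5, chr5:141135179-141135208: ttaggacgcctGGTGGCGCTgcaggctaag
PCDHB16, chr5:141182310-141182339: tgagaacgcgtGGTGGCGCTgcaggttaag
PCDHB7, chr5:141172566-141172595: acaaaacgcaaGGTGGCGCTgctggctaaa
PCDHB14, chr5:141223263-141223292: tggagacacatGGTGGCGCTacaggataag
PCDHGB5, chr5:141397863-141397892: tgctgactctggGCGCCGCTGTtggccaaa
PCDHGA11, chr5:141420972-141421001: aatgggctctaggcgcCGCTgctcaccaat

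These letters were chosen after the promoters had been read, and both strands were searched. GATGTCGCT was in 9 of 13 PCDHA promoters and in 0.128% of all 27305 genes with a promoter in the table. GGTGGCGCT was in 13 of 14 PCDHB promoters, against 0.619% of genes. The promoter without it was that of PCDHB1, which had no count in any library. PCDHB4 and PCDHB8 hold GGTGGCGCT and still fell below the minimum-count filter. GCGCCGCTGT was in 9 of 20 PCDHG promoters, against 0.165% of genes, and in 1 of 23 non-clustered members. The core CGCT was in 71.9% of all genes and says little alone. In the 9 PCDHA promoters the core lay between positions -81 and -38 relative to the start (median -48). Genes that did and did not pass a test share the element: PCDHA6 and PCDHA7 hold GATGTCGCT and PCDHB2, PCDHB13 and PCDHB15 hold GGTGGCGCT, and none of these 5 was called in any comparison. PCDHA11, PCDHAC1 and PCDHAC2 lack GATGTCGCT and rose with guides in p65 lines. PCDHGC3 and PCDHGA11, the highest PCDHG genes by TPM in every line, lack GCGCCGCTGT. Most PCDHG genes that hold GCGCCGCTGT fell below the minimum-count filter. The part of these letters in the levels was not tested.

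Guides were compared with no guides in each pair of lines. Each side is 1 line, so an effect of the guide cassette and another difference between the lines cannot be told apart. In p65 lines 26 of the 49 tested members rose and 3 fell (median log2 fold change 0.53), where 38.9% of all 14961 tested genes were called, 18.7% higher and 20.2% lower (edgeR quasi-likelihood, adjusted p under 0.05). In VP64 lines 20 rose and 3 fell (median 0.45), where 40.6% of all genes were called, 19.3% higher and 21.3% lower. The median of all genes was 0.00 in VP64 lines and -0.01 in p65 lines. Clustered genes, 31 of the 49 tested members, made up 22 of the 26 that rose in p65 lines and 15 of the 20 in VP64 lines. No clustered gene fell. In either direction, 71.0% of clustered and 38.9% of non-clustered tested members were called in p65 lines. In VP64 lines 48.4% and 44.4% were called. Calls were common in both comparisons. With guides 11 members rose at least 2-fold in p65 lines, where 2.61% of all genes were called at that size in either direction, and 6 in VP64 lines, where 3.07% were.

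PCDHB5 and PCDHB11 were the clustered genes with the clearest rise. PCDHB5 had 53.5, 55.1 and 47.9 CPM in the p65 line with guides, against 14.6, 14.8 and 15.3 CPM in the p65 line without (log2 fold change 1.80 ± 0.076 SE, adjusted p = 4.9e-14). It had 37.5, 38.3 and 35.6 CPM in the VP64 line with guides, against 14.1, 14.1 and 17.2 CPM in the VP64 line without (log2 fold change 1.30 ± 0.079, adjusted p = 3.19e-11). Guided and unguided libraries stood far apart, and the line without an activation domain was lower still at 8.50, 7.82 and 7.39 CPM. Its share of the PCDHB sum was 48.3% in the p65 line with guides and 38.8% in the VP64 line with guides, against 32.0% and 29% in the p65 and VP64 lines without guides. The rise was larger in p65 than in VP64 lines, by 0.51 ± 0.11 on the log2 scale (adjusted p = 0.0227, edgeR). It was the only member among 49 to pass that test of the difference, for which 0.956% of all genes passed. That call was lost without VP64 guided replicate C, p65 guided B, VP64 unguided C or p65 unguided A or B (0.40 to 0.50, adjusted p = 0.0504 to 0.112) and with an effective-length offset (0.47, adjusted p = 0.209).

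PCDHB11 was low without guides and rose in both pairs. It had 5.34, 6.16 and 6.90 CPM in the p65 line with guides, against 0.967, 0.468 and 0.440 CPM without (log2 fold change 3.30 ± 0.253, adjusted p = 1.13e-09). It had 5.22, 4.65 and 5.12 CPM in the VP64 line with guides, against 0.768, 0.973 and 0.965 CPM without (log2 fold change 2.46 ± 0.246, adjusted p = 5.63e-08). Unlike PCDHB5, its level without an activation domain, 0.926, 0.628 and 0.522 CPM, lay among the unguided libraries, and neither comparison with that line was called (0.40 for VP64, -0.14 for p65).

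PCDHB16 had 10.8, 10.2 and 8.58 CPM in the p65 line with guides, against 4.68, 5.10 and 5.41 CPM without (0.96 ± 0.145, adjusted p = 1.7e-05). It had 9.41, 9.55 and 10.4 CPM in the VP64 line with guides, against 5.22, 4.86 and 5.20 CPM without (0.94 ± 0.148, adjusted p = 2.31e-05). Its guided libraries did not overlap the unguided ones in either pair. PCDHB6, next after PCDHB5 by CPM in the guided lines, rose by 0.65 in p65 lines (adjusted p = 7.78e-06) and 0.36 in VP64 lines (adjusted p = 0.00323). PCDHB10 rose in both (1.10 and 1.12), although the VP64 call was lost without guided replicate B (0.87, adjusted p = 0.059). PCDHB14 was called in VP64 lines (0.87 ± 0.155, adjusted p = 9.64e-05) and not in p65 lines (0.29, adjusted p = 0.169), and the difference of these effects was not called (-0.58, adjusted p = 0.286).

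A further 4 PCDHB genes were called in p65 lines and missed the threshold in VP64 lines: PCDHB3 (0.70), PCDHB7 (1.66), PCDHB9 (0.80) and PCDHB12 (0.58), with VP64 values of 0.45, 0.62, 0.39 and 0.45 and no called difference. The PCDHB3 call was lost without p65 unguided replicate A (0.54, adjusted p = 0.0507). PCDHB9 lost it without VP64 guided B, p65 guided B (0.50), VP64 unguided B, any p65 unguided library or replicate A without an activation domain (0.50 to 0.93, adjusted p = 0.0501 to 0.275), and without a count filter, with DESeq2, a replicate block, an effective-length offset or the compared libraries alone (adjusted p = 0.0545 to 0.0791). PCDHB12 lost it without any p65 guided library or p65 unguided B or C (0.48 to 0.62, adjusted p = 0.0574 to 0.128), and without a count filter or with DESeq2 (adjusted p = 0.0534 to 0.0642). In all, 9 of 13 tested PCDHB genes rose in p65 lines and 6 in VP64 lines.

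Among PCDHA genes, 8 of 11 rose in p65 lines and 5 in VP64 lines. PCDHA10, the highest PCDHA gene by CPM, had 19.7, 22.9 and 19.8 CPM in the p65 line with guides, against 14.4, 13.2 and 12.8 CPM without (0.63 ± 0.09, adjusted p = 8.85e-06). It had 20.2, 21.5 and 21.7 CPM in the VP64 line with guides, against 11.6, 14.9 and 13.3 CPM without (0.67 ± 0.091, adjusted p = 3.79e-06), and 12.4, 12.4 and 11.4 CPM without an activation domain. Only the guided lines stood apart. PCDHA5 rose by 0.91 in p65 lines (adjusted p = 0.000216) and by 0.83 in VP64 lines (adjusted p = 0.000657). PCDHA4 rose by 0.68 in p65 and 0.59 in VP64 lines, and PCDHA8 by 0.69 in p65 and 0.58 in VP64 lines. The VP64 call of PCDHA4 was lost without VP64 guided B or VP64 unguided A or C (0.46 to 0.61, adjusted p = 0.0505 to 0.114). That of PCDHA8 was lost without VP64 guided B or VP64 unguided A or B (0.49 to 0.62, adjusted p = 0.0504 to 0.123), and its p65 call without p65 unguided C (0.47, adjusted p = 0.0831).

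PCDHA11 rose by 1.24 ± 0.223 in p65 lines (adjusted p = 0.000121), and its rise of 0.72 in VP64 lines was lost without guided replicate A or C (0.54 to 0.62, adjusted p = 0.0724 to 0.105) and with an effective-length offset (0.43, adjusted p = 0.434). PCDHA12, at 1.65, 0.415 and 0.592 CPM in the p65 line with guides against 0.255, 0.364 and 0.176 CPM without, rose by 1.74 (adjusted p = 0.0123). That value came to 0.94 without guided replicate A, and the call was lost there, without p65 unguided C (0.94 to 1.51, adjusted p = 0.0576 to 0.211) and with the offset (1.47, adjusted p = 0.117). PCDHA7 (0.58 in p65 and 0.49 in VP64 lines) and PCDHA6 (-0.48 and -0.15) were not called.

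The C-type genes at the end of the PCDHA cluster, which many neurons express constitutively, were called in p65 lines and not in VP64 lines. PCDHAC2 had 18.7, 17.2 and 18.3 CPM in the p65 line with guides, against 10.6, 12 and 12.9 CPM without (0.61, adjusted p = 0.000285). It had 11.1, 12 and 11 CPM in the VP64 line with guides, against 11.4, 9.32 and 11.3 CPM without (0.09, not called). The p65 line with guides was thus the high one. PCDHAC1 rose by 1.22 ± 0.25 in p65 lines (adjusted p = 0.000448), against 0.43 in VP64 lines (adjusted p = 0.23). Neither gene was called for the difference of guide effects.

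Among PCDHG genes, 5 of 7 rose in p65 lines and 4 in VP64 lines. PCDHGC3, which gave 55.4% to 61.0% of the PCDHG sum by line, had 61.2, 66.6 and 56.5 CPM in the p65 line with guides, against 46.8, 46.8 and 46.9 CPM without (0.39 ± 0.052, adjusted p = 3.48e-06). It had 76.2, 75.5 and 74.5 CPM in the VP64 line with guides, against 52.4, 53.2 and 53.5 CPM without (0.51 ± 0.052, adjusted p = 7.02e-08). The VP64 line with guides was the highest and the p65 line without guides the lowest. PCDHGA11 rose by 0.80 ± 0.101 in VP64 lines (adjusted p = 1.36e-06). Its p65 value of 0.31 came to 0.14 without guided replicate A, and the call was lost there, without p65 unguided A or C (0.14 to 0.30, adjusted p = 0.0585 to 0.274) and with an effective-length offset (adjusted p = 0.0564).

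PCDHGA12 followed PCDHGA11, with 0.83 ± 0.115 in VP64 lines (adjusted p = 4.83e-06) and 0.36 in p65 lines, where the call was lost without p65 guided C or p65 unguided A or B (0.29 to 0.32, adjusted p = 0.0731 to 0.101). PCDHGB7 rose by 1.29 in p65 lines and 1.48 in VP64 lines, and the p65 call was lost without guided replicate A (0.89, adjusted p = 0.0974). PCDHGB2 was called in p65 lines (1.08) and lost the call without any p65 guided library or p65 unguided B or C (0.86 to 1.18, adjusted p = 0.055 to 0.158), and with DESeq2, a replicate block or unrounded counts (adjusted p = 0.0522 to 0.0601). PCDHGB5 was not called (0.16 in p65 and 0.67 in VP64 lines). Constant exons are shared within this cluster, so the division of reads among these genes is an estimate.

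**Figure D2:**
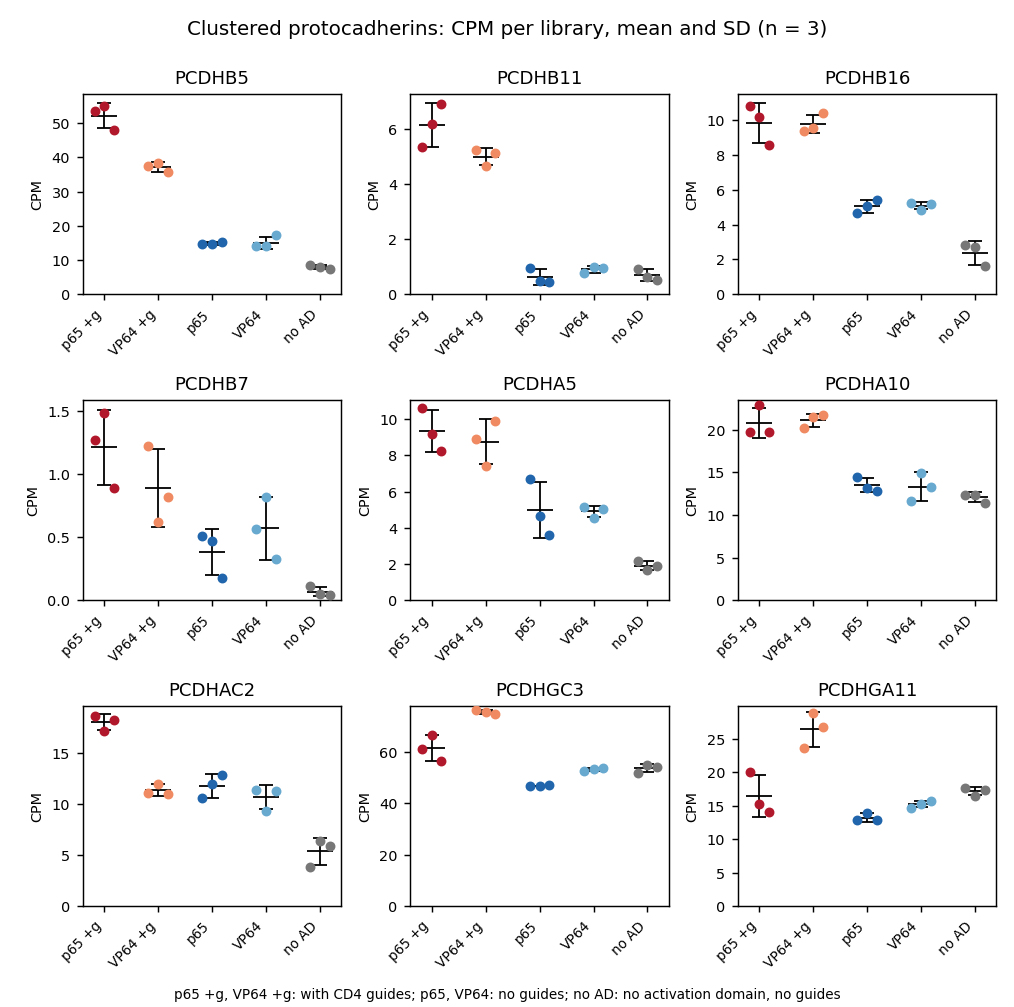
CPM of clustered protocadherins that the text turns on, in each library by line (points, libraries; black bars, mean and SD of 3). PCDHB5 and PCDHB11 lie higher in both guided lines than in every other line, and PCDHGC3 and PCDHGA11 are highest in the VP64 line with guides.

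The activation domains were then compared with the line lacking them, both without guides. In the p65 line 13 of 49 members rose and 10 fell (median 0.51), where 49.7% of all genes were called, 24.7% higher and 24.9% lower. In the VP64 line 17 rose and 5 fell (median 0.48), where 47.6% were called, 23.6% higher and 24.0% lower. These comparisons share the line without an activation domain, and the guide comparisons use the same unguided lines, so the values are set side by side only. Of the tested members 46.9% (p65) and 44.9% (VP64) were called, near these shares of all genes. PCDHA and PCDHB genes gave most of the rises: 3 of 11 PCDHA genes in each line, and 7 (p65) and 9 (VP64) of 13 PCDHB genes. The PCDHA share, 27.3% in each line, is near the 24.7% (p65) and 23.6% (VP64) of all genes called higher. The PCDHA genes were PCDHA4, PCDHA5 and PCDHAC2 in both. No PCDHG gene rose in either.

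PCDHA5 had 6.67, 4.63 and 3.61 CPM in the p65 line, against 2.18, 1.64 and 1.91 CPM without an activation domain (1.37, adjusted p = 1.09e-05). The VP64 line had 5.12, 4.56 and 5.04 CPM (1.36, adjusted p = 1.4e-05). PCDHAC2 was higher in the p65 (1.13, adjusted p = 4.23e-07) and VP64 (0.97, adjusted p = 4.22e-06) lines in all libraries, against 3.87, 6.42 and 5.87 CPM without an activation domain. PCDHA4 was 1.18 and 1.32 higher in p65 and VP64 lines, both called. PCDHA10, the highest PCDHA gene by CPM though not per length in these lines, was not called (0.16 and 0.14), and its share of the PCDHA sum was 30.1% in each of the p65 and VP64 lines, against 40.1% without an activation domain.

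PCDHB5 was 0.92 ± 0.093 (p65, adjusted p = 3.88e-08) and 0.94 ± 0.094 (VP64, adjusted p = 3.49e-08) above the line without an activation domain. PCDHB16 was 1.11 higher in both (adjusted p = 1.33e-05 and 1.43e-05), at 2.83, 2.70 and 1.61 CPM without an activation domain. PCDHB6 rose by 0.52 in the p65 and 0.79 in the VP64 line, PCDHB14 by 0.87 and 1.02 and PCDHB3 by 0.87 and 1.04. PCDHB7 had the highest fitted value, 2.43 ± 0.705 (p65, adjusted p = 0.0065) and 3.02 ± 0.661 (VP64, adjusted p = 0.000678). It had 0.509, 0.468 and 0.176 CPM in the p65 line and 0.563, 0.819 and 0.322 CPM in the VP64 line, against 0.109, 0.0483 and 0.0435 CPM, or 4 expected counts over 3 libraries, without an activation domain.

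Several PCDHB calls at low counts were less stable. PCDHB10 rose by 0.93 in the p65 line (adjusted p = 0.048), a call lost when any of 10 libraries was left out: p65 guided A, B or C, VP64 guided C, p65 unguided A or B, VP64 unguided B, or A, B or C without an activation domain (0.84 to 1.07, adjusted p = 0.0502 to 0.122), and without a count filter, with DESeq2, unrounded counts or an effective-length offset (adjusted p = 0.0517 to 0.0664). In the VP64 line it rose by 1.18, lost without VP64 unguided C (0.99, adjusted p = 0.0647). PCDHB9 rose by 1.07 in the VP64 line, lost without VP64 unguided C or replicate C without an activation domain (0.90 to 0.93, adjusted p = 0.0635 to 0.069). PCDHB12 rose by 0.83 there, lost with an effective-length offset (0.57, adjusted p = 0.0978).

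All 3 clustered genes that fell were PCDHG genes in the p65 line without guides: PCDHGC3 (-0.19, adjusted p = 0.0037), PCDHGA11 (-0.38, adjusted p = 0.00438) and PCDHGA12 (-0.32, adjusted p = 0.0288). The PCDHGA12 call was lost without p65 unguided A or B, or B or C without an activation domain (-0.33 to -0.25, adjusted p = 0.0577 to 0.137). In the VP64 line the values were -0.01, -0.18 and -0.13, none called.

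**Figure D3:**
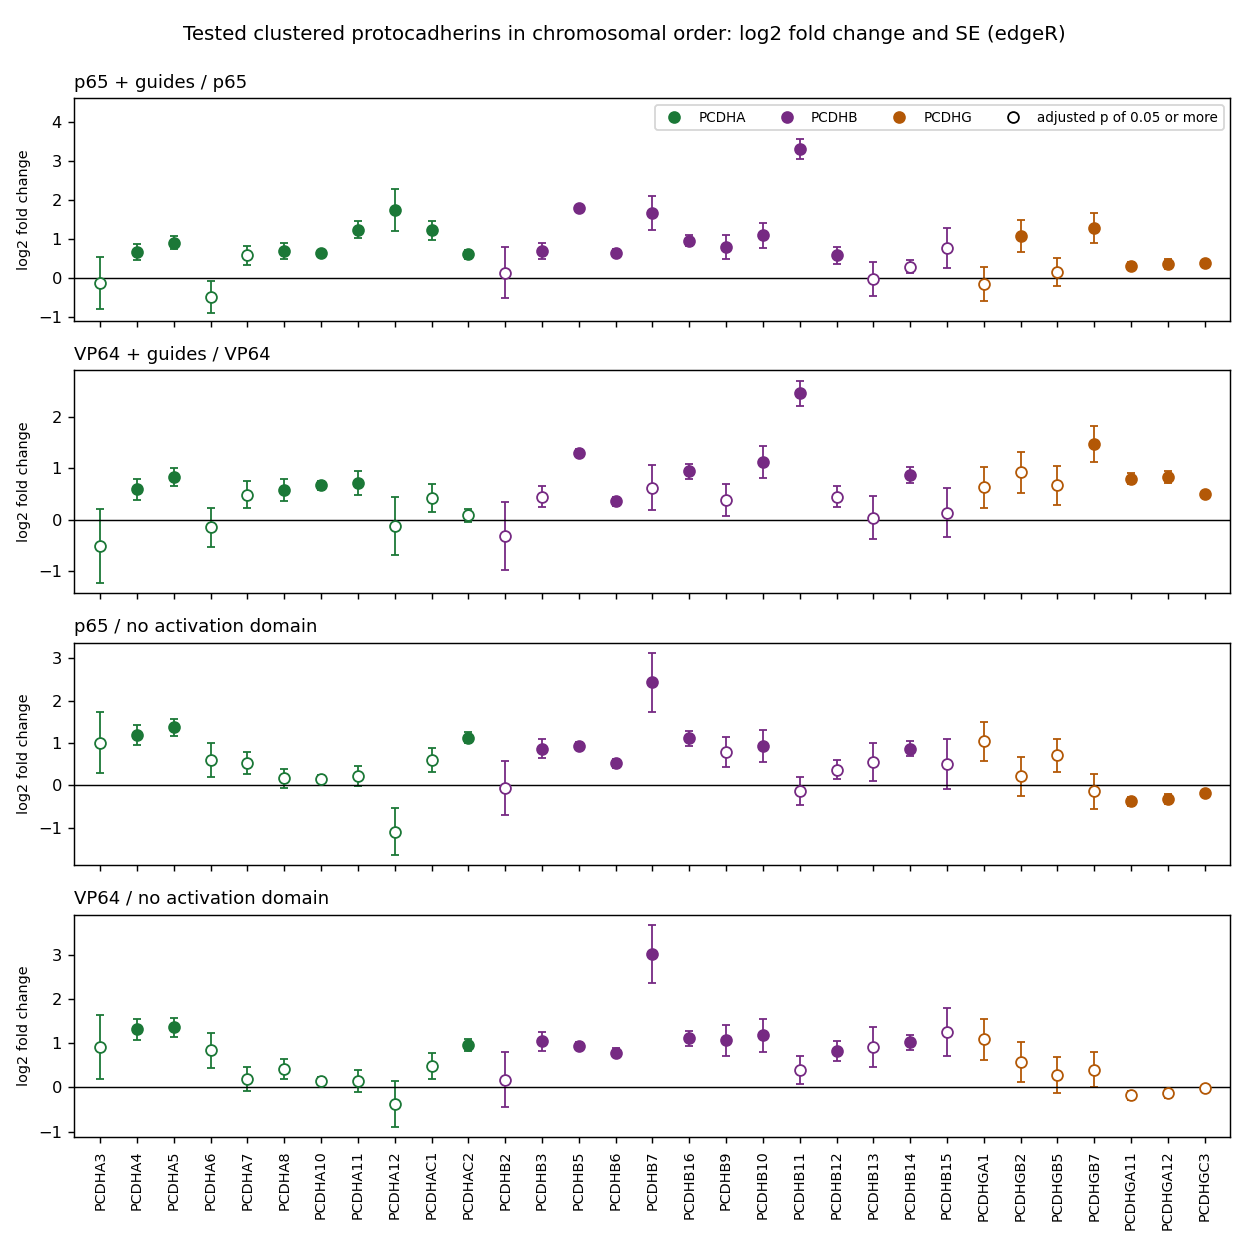
Fitted log2 fold changes of the 31 tested clustered genes in the guide and activation-domain comparisons (tested line over its reference; filled marks, adjusted p under 0.05 by edgeR). PCDHA and PCDHB calls lie above 0 in these comparisons, while 3 called PCDHG genes lie below 0 in the p65 line against the line without an activation domain.

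The nanobody domains were also compared with each other. With guides, 3 of 49 members were higher in the p65 line and 8 lower, where 7.92% of all genes were called, 3.72% higher and 4.20% lower. The 3 were PCDHB5 (0.49 ± 0.07, adjusted p = 7.92e-05), PCDHAC2 (0.67, adjusted p = 0.000985) and PCDHAC1 (0.92, adjusted p = 0.0244). The PCDHAC1 call was lost without p65 guided A or B or VP64 guided B or C (0.68 to 0.90, adjusted p = 0.0562 to 0.155) and with an effective-length offset (0.83, adjusted p = 0.12). PCDHB14 (-0.74 ± 0.154, adjusted p = 0.00358), PCDHGA11 (-0.69), PCDHGA12 (-0.66) and PCDHGC3 (-0.30) were lower in the p65 line, and PCDHB14 lost its call with the offset (-0.73, adjusted p = 0.0613). The other 4 were non-clustered: CDH2, CDH4, CDH19 and PCDH1 (-0.42, adjusted p = 0.000277). Without guides no clustered gene was called between p65 and VP64, where 2.11% of all genes were called. Of the 49 members 2 were called there, both lower in the p65 line: CDH2 and CDH19, where 1.72% of all genes were called lower.

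CDH2, N-cadherin, was the most abundant classical cadherin and was lower in guided than unguided lines, by less than 2-fold. It had 61.7, 67.4 and 67.4 CPM in the p65 line with guides, against 75.7, 83.2 and 82.6 CPM without (-0.30 ± 0.047, adjusted p = 2.55e-05). It had 79.1, 84.6 and 80.7 CPM in the VP64 line with guides, against 97.6, 97.3 and 98.4 CPM without (-0.26 ± 0.046, adjusted p = 8.21e-05). Guided and unguided libraries did not overlap within either pair. The p65 lines were also below the VP64 lines with guides (-0.32, adjusted p = 0.000136) and without (-0.28, adjusted p = 0.000858).

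CDH2 was lower in the unguided p65 line (-0.14, adjusted p = 0.013) and higher in the unguided VP64 line (0.14, adjusted p = 0.0149), against 89.9, 88.2 and 88.4 CPM without an activation domain. The p65 call was lost without p65 unguided A (-0.09) or replicate A without an activation domain (-0.13 to -0.09, adjusted p = 0.0598 to 0.119), without a count filter (adjusted p = 0.0513) and with an effective-length offset (adjusted p = 0.145).

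CDH4, R-cadherin of the retina, had 17.3, 18.2 and 18.1 CPM in the p65 line with guides, against 22.3, 22.9 and 26.0 CPM without (-0.41 ± 0.089, adjusted p = 0.000807). It had 26.0, 19.0 and 24.3 CPM in the VP64 line with guides, against 29.4, 28.3 and 28.9 CPM without (-0.33 ± 0.086, adjusted p = 0.00353, and -0.20 without guided replicate B, still called). It was highest without an activation domain (32.1, 32.7 and 34.1 CPM), and the unguided p65 line was lower than that (-0.47, adjusted p = 6e-05) while the VP64 line was not called (-0.19, adjusted p = 0.058). Between guided lines p65 was lower (-0.36, adjusted p = 0.0161), a call lost without p65 guided A or VP64 guided A or C (-0.34 to -0.27, adjusted p = 0.0551 to 0.0954), and with an effective-length offset or the compared libraries alone (adjusted p = 0.0683 to 0.0703).

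CDH1, E-cadherin, stayed low and was called in no comparison, with 1.49, 1.07 and 1.63 CPM in the p65 line with guides, against 1.53, 1.20 and 0.968 CPM without (0.19, adjusted p = 0.713). The VP64 line had 1.03, 0.620 and 1.33 CPM with guides, against 0.665, 1.43 and 1.07 CPM without, and the line without an activation domain had 0.654, 1.69 and 1.48 CPM. The groups overlapped. P-cadherin (CDH3, 0.296 to 0.717 CPM over all libraries) and muscle M-cadherin (CDH15, 0.483 to 1.58 CPM) were not called in any comparison, and nor was intestinal CDH17 (0.980 to 1.98 CPM).

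Among type II cadherins, CDH19, known from the neural crest and Schwann cell lineage, was called in 5 of 6 comparisons between lines. It had 3.14, 2.67 and 2.17 CPM in the p65 line with guides, against 1.83, 1.87 and 1.94 CPM without (0.49, adjusted p = 0.0861). It had 5.41, 9.24 and 6.13 CPM in the VP64 line with guides, against 3.17, 3.84 and 4.02 CPM without (0.92 ± 0.185, adjusted p = 0.000349). The p65 lines were the lower ones throughout: with guides CDH19 was -1.40 ± 0.194 against VP64 (adjusted p = 5.55e-05), which was the 1 member called lower by at least 2-fold there. Without guides it was -0.96 (adjusted p = 0.0148), lost without p65 unguided A or B or VP64 unguided B or C (-0.96 to -0.90, adjusted p = 0.0562 to 0.0722) and with an effective-length offset (-0.64, adjusted p = 0.412). The unguided p65 line was -1.66 ± 0.20 (adjusted p = 4.83e-07) and the unguided VP64 line -0.70 ± 0.185 (adjusted p = 0.00338) against the line without an activation domain, which had 5.61, 6.13 and 6.18 CPM.

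CDH24 was higher in both unguided activation-domain lines, at 9.67, 8.74 and 9.72 CPM (p65) and 9.98, 8.91 and 10.1 CPM (VP64), against 5.77, 7.58 and 6.26 CPM in the line lacking them (0.52, adjusted p = 0.00124, and 0.56, adjusted p = 0.000665). Its rise with guides in p65 lines (0.38 ± 0.116, adjusted p = 0.0121) was lost without guided replicate A or B (0.32 to 0.34, adjusted p = 0.0512 to 0.0642) and with an effective-length offset (0.35, adjusted p = 0.0827). CDH11, a mesenchymal cadherin, had at most 1.01 CPM in any library. It was called with guides in VP64 lines (1.34 ± 0.525, adjusted p = 0.0469), a call lost when p65 guided C, any VP64 guided library, any unguided p65 or VP64 library or replicate A without an activation domain was left out (1.10 to 1.47, adjusted p = 0.0542 to 0.171) and without a count filter, with DESeq2 or with an effective-length offset (adjusted p = 0.0864 to 0.79; 0.34 with the offset).

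**Figure D4:**
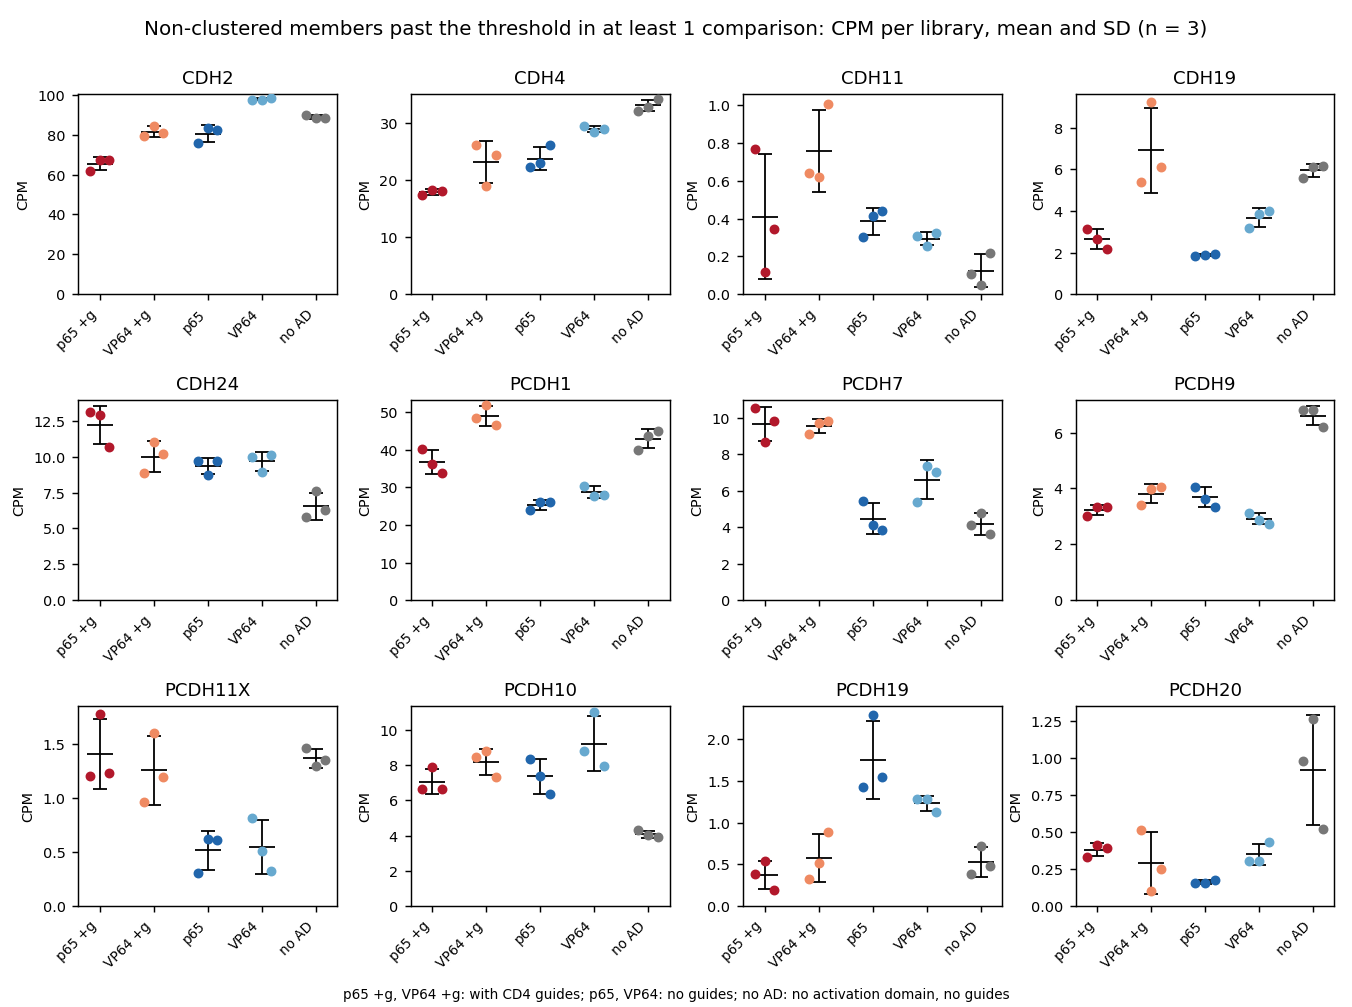
CPM of non-clustered cadherins and protocadherins in each library by line (points, libraries; black bars, mean and SD of 3). CDH2 and CDH4 are lowest in the p65 line with guides, CDH19 is lowest in the p65 line without guides, and PCDH1 is lowest in the 2 unguided activation-domain lines.

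Of 4 tested delta-1 protocadherins, 3 rose with guides in each pair, where 18.7% (p65) and 19.3% (VP64) of all genes were called higher. Against the line without an activation domain 3 fell in the unguided p65 line. In the unguided VP64 line 3 fell and 1 (PCDH7) rose. Of all genes 24.9% (p65) and 24.0% (VP64) were called lower there, and 23.6% higher in the VP64 line. PCDH1, an adhesion protein of airway epithelium, had 40.1, 36.1 and 33.8 CPM in the p65 line with guides, against 23.9, 26.2 and 26.2 CPM without (0.53 ± 0.071, adjusted p = 3.82e-06). It had 48.5, 51.8 and 46.7 CPM in the VP64 line with guides, against 30.5, 27.6 and 28.0 CPM without (0.77 ± 0.069, adjusted p = 1.16e-08). Without an activation domain it was at 40.0, 43.8 and 44.9 CPM, above both unguided lines (p65 -0.76, adjusted p = 9e-09; VP64 -0.58, adjusted p = 4.22e-07). The unguided lines were therefore the low ones.

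PCDH7, known to bind the phosphatase inhibitor SET, had 10.5, 8.65 and 9.81 CPM in the p65 line with guides, against 5.45, 4.11 and 3.83 CPM without (1.12 ± 0.15, adjusted p = 3.48e-06). It had 9.08, 9.71 and 9.79 CPM in the VP64 line with guides, against 5.38, 7.37 and 7.02 CPM without (0.53 ± 0.146, adjusted p = 0.00529). The libraries of the guided lines overlapped, and the unguided VP64 line was above the 4.09, 4.78 and 3.61 CPM of the line without an activation domain (0.67, adjusted p = 0.00128) while the p65 line was not called (0.10). PCDH9 had 4.07, 3.64 and 3.34 CPM in the unguided p65 line (-0.84 ± 0.141, adjusted p = 3.63e-05) and 3.12, 2.87 and 2.73 CPM in the unguided VP64 line (-1.18 ± 0.146, adjusted p = 7.9e-07), against 6.81, 6.81 and 6.22 CPM without an activation domain, the highest of the 5 lines. PCDH9 was not called between guided and unguided lines (-0.19 in p65 and 0.39 in VP64 lines, adjusted p = 0.0513 in VP64 lines).

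PCDH11X had 1.21, 1.78 and 1.23 CPM in the p65 line with guides, against 0.305, 0.624 and 0.616 CPM without (1.42 ± 0.363, adjusted p = 0.00332). Its rise of 1.19 in VP64 lines was lost without guided replicate B or unguided C (0.94 to 0.96, adjusted p = 0.0668 to 0.0861). Both unguided lines were lower than the line without an activation domain (p65 -1.39, adjusted p = 0.00268; VP64 -1.30, adjusted p = 0.00493), which had 1.47, 1.30 and 1.35 CPM. PCDH11X has a near-identical copy, PCDH11Y, and reads of the pair may be divided between them.

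Delta-2 protocadherins include regulators of the WAVE actin complex. PCDH10, known to recruit that complex through NCKAP1, was 0.85 ± 0.146 (p65, adjusted p = 4.92e-05) and 1.18 ± 0.144 (VP64, adjusted p = 6.1e-07) higher in unguided lines than without an activation domain. It had 8.35, 7.39 and 6.34 CPM in the p65 line and 8.80, 11 and 7.93 CPM in the VP64 line, against 4.30, 4.01 and 3.91 CPM. Between guided and unguided lines it was not called (-0.06 and -0.17).

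PCDH19, an X-linked gene known from a form of epilepsy, was the member that fell most with guides. It had 0.385, 0.533 and 0.197 CPM in the p65 line with guides, against 1.43, 2.29 and 1.54 CPM without (-2.24 ± 0.401, adjusted p = 0.000114). In VP64 lines it had 0.322, 0.516 and 0.884 CPM with guides, against 1.28, 1.28 and 1.13 CPM without (-1.09, adjusted p = 0.0304). That call was lost without VP64 guided A or B or VP64 unguided A or B (-1.05 to -0.82, adjusted p = 0.0706 to 0.133) and with an effective-length offset (-0.97, adjusted p = 0.104). The line without an activation domain (0.381, 0.724 and 0.478 CPM) overlapped the guided lines, and the unguided p65 (1.71, adjusted p = 0.000561) and VP64 (1.20, adjusted p = 0.0132) lines were above it. The VP64 call was lost without replicate A of the line lacking an activation domain (1.04, adjusted p = 0.0531).

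PCDH17, the other delta-2 gene tested, had 3.07 to 5.53 CPM over all libraries and was not called. PCDH20 had 0.153, 0.156 and 0.176 CPM in the unguided p65 line (-2.44 ± 0.515, adjusted p = 0.00043) and 0.307, 0.307 and 0.429 CPM in the unguided VP64 line (-1.38, adjusted p = 0.0166), against 0.980, 1.26 and 0.522 CPM without an activation domain. The VP64 call was lost without VP64 unguided A or B or replicate B without an activation domain (-1.29 to -1.07, adjusted p = 0.0605 to 0.11). Endothelial PCDH12 was not called in any comparison.

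**Figure D5:**
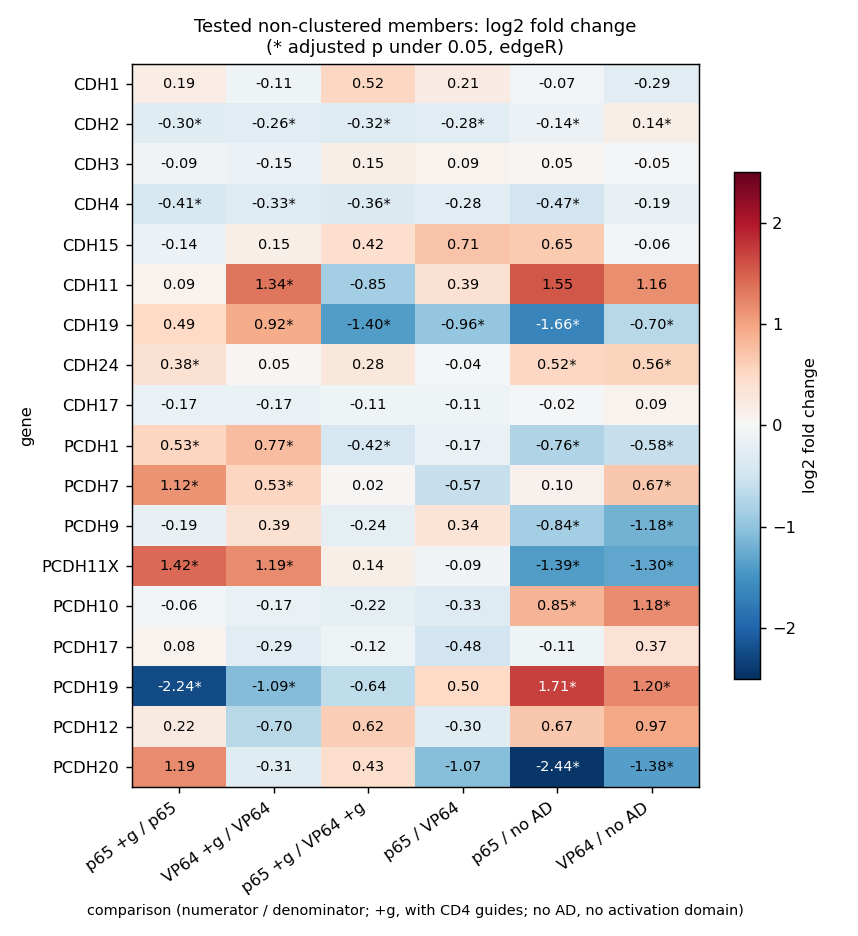
Heatmap of fitted log2 fold changes of the 18 tested non-clustered members in each comparison between lines (tested line over its reference). Colour and printed values give the fold change, and asterisks mark adjusted p under 0.05 by edgeR. PCDH19 has the lowest values with guides, and PCDH20 and CDH19 have the lowest in the unguided p65 line against the line without an activation domain.

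Other genes of the pathway were read from fixed lists with the same test, where 18.7% of all genes were called higher and 20.2% lower with guides in p65 lines, and 19.3% higher and 21.3% lower in VP64 lines. Of 11 tested catenins, 3 rose and 1 fell with guides in p65 lines and 3 rose and 3 fell in VP64 lines, against 38.9% and 40.6% of all genes called in the p65 and VP64 pairs; the p65 count is near that background. Beta-catenin (CTNNB1) rose by 0.22 in p65 and 0.27 in VP64 lines and p120-catenin (CTNND1) by 0.28 and 0.27, while PKP4 was -0.53 and -0.65. Of 14 linkers of junctions to actin, 3 rose and 3 fell in p65 lines and 1 rose and 5 fell in VP64 lines, and LIMA1, which ties alpha-catenin to actin, fell in both (-0.27 in p65 and -0.52 in VP64 lines). Of 9 tested proteases that cut cadherins or activate such proteases, 5 rose in p65 and 4 in VP64 lines and none fell, where 18.7% and 19.3% of all genes were called higher, among them the membrane protease MMP14 (0.95 and 0.83) and the sheddase ADAM17 (0.48 and 0.17).

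SNAI2, a repressor of CDH1, was lower with guides, at 2.34 ± 0.539 CPM against 5.05 ± 1.17 CPM in p65 lines (-1.10) and 2.15 ± 0.399 CPM against 5.38 ± 0.441 CPM in VP64 lines (-1.33), each SD over 3 libraries and both called. Of the 7 tested transcription factors of this list, none rose and 1 fell in p65 lines, and 1 rose (TWIST1, 0.35) and 2 fell in VP64 lines. Of 13 regulators of the protocadherin locus, 10 fell in each pair, where 20.2% (p65) and 21.3% (VP64) of all genes were called lower, and 0 (p65) and 1 (VP64) rose. They include SMCHD1, known to silence clustered protocadherins (-0.53 and -0.44), and the cohesin subunits STAG1 (-0.42 and -0.33) and RAD21 (-0.29 and -0.16). The list medians were -0.29 and -0.21. Against the line without an activation domain, 4 of the 13 rose and 4 fell in the unguided p65 line (median 0.0). In the unguided VP64 line 1 rose and 7 fell (median -0.12). Of all genes 24.9% (p65) and 24.0% (VP64) were called lower there. The part of these regulators in the protocadherin values was not tested. Of the 5 tested desmosomal genes, 2 fell in p65 lines and 1 in VP64 lines, and desmoplakin (DSP) was -0.44 and -0.46. Of 10 tested other members of the superfamily, 3 rose and 1 fell in p65 and 4 rose and 2 fell in VP64 lines, with FAT1 at -0.58 and -0.78 and CELSR2 at 0.24 and 0.50. Of 9 WAVE complex genes, 2 rose and 4 fell in p65 and 1 rose and 4 fell in VP64 lines. Of all genes 38.9% (p65) and 40.6% (VP64) were called in these pairs. The desmosomal and other superfamily counts in p65 lines are near that share, and counts over such short lists are descriptions.

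Marker lists of other cell types were read beside these results. Summed over 10 melanocyte lineage genes, of which 9 averaged at least 1 TPM and none was at 0 throughout, the level was 288 to 379 TPM in the p65 line with guides and 408 to 487 TPM in the VP64 line with guides. It was 194 to 213 TPM and 218 to 239 TPM in the p65 and VP64 lines without guides, and 219 to 226 TPM without an activation domain. The summed level was thus higher with guides in both pairs, and SOX10 and S100B gave most of it. In p65 lines SOX10 averaged 179 TPM with guides and 131 TPM without, and S100B 126 and 45.1 TPM. MITF, TYRP1 and DCT were no higher with guides there (3.45, 1.90 and 0.993 TPM, against 3.61, 1.94 and 1.54 TPM without). By gene, 4 of 9 tested rose and 1 fell in p65 lines, where 38.9% of all genes were called, and 7 rose in VP64 lines, where 40.6% were called. The part of these markers in the results was not tested. The other lists were lower: 8 epithelial genes at 56.8 to 77.3 TPM, of which keratins KRT8 and KRT18 gave most, 6 neuronal and glial genes at 6.61 to 24.9 TPM and 5 blood cell genes at 0.73 to 5.32 TPM. The 7 fibroblast and endothelial genes summed to 10.2 to 11.6 TPM in the p65 line with guides and 5.75 to 7.16 TPM in the VP64 line with guides, against 3.55 to 8.48 and 3.21 to 5.23 TPM in the p65 and VP64 lines without guides and 4.32 to 5.57 TPM without an activation domain. Only 1 of them, COL1A1, averaged 1 TPM or more over the libraries, and the part of this list was not tested.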

How the data were processed

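The members, gene lists and named genes were chosen with earlier results of these data known. The promoter motifs and the window of neighbouring genes were chosen after values or promoters had been seen. Tables for each of the 15 libraries held 58813 entries, of which 92 spike-ins were left out and 58721 matched GENCODE release 29. Expected counts were deposited as RSEM's estimates of reads for each gene, per the file headers, and the submitters' processing notes name STAR and hg38. The deposited TPM values, also by RSEM, divide by gene length. Effective lengths in bases, another unit deposited in the same tables, served for an alternative only. Tool versions and strand settings: not given in the sources used here. Reads of antisense partners cannot be told apart.

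Expected counts were rounded and fitted over all 15 libraries with edgeR 4.0.16 in R 4.3.3, using its quasi-likelihood test, a coefficient for each of the 5 lines, TMM factors of 0.983 to 1.01 and filterByExpr at a minimum count of 10. This left 14961 genes, 10 residual degrees of freedom and a typical biological coefficient of variation of 5.45%. Adjusted p-values are Benjamini-Hochberg over all tested genes, with a threshold of 0.05. There were 7 comparisons, including the difference of the guide effects. CPM in the text is the rounded count divided by the library's total over tested genes times its TMM factor, scaled to 1000000, and intervals cover counting and replicate spread only. The named members were all non-clustered genes tested and those clustered genes that were called or averaged at least 1 CPM, with up to 4 called genes a pathway list, taken by smallest p. Alternatives were DESeq2 1.42.0, DESeq2 size factors, no count filter, a minimum mean of 1 CPM, an effective-length offset, unrounded counts, only the compared libraries, a replicate block, TPM in place of CPM for the cluster sums and each library left out. The fit was tested on simulated data first. Replicate letters did not pair the samples, with correlations of same-letter deviations between -0.073 and 0.0635. Replicates differed by 2.46 to 10.3 chi-square units per degree of freedom, above sampling noise. That spread cannot show whether they were grown apart, and each was counted as a library.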

Additional observations from a re-analysis of the deposited data

Results flagged for a closer look

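PCDHB5 stood out because its change with guides differed between the p65 and VP64 lines by a direct test of that difference, which was 0.51 on the log2 scale (SE 0.11, adjusted p = 0.0227, edgeR). It averaged 52.2 CPM in the p65 line with guides and 14.9 CPM in the p65 line without. In VP64 lines it averaged 37.1 CPM with guides and 15.1 CPM without. No other of the 49 tested members passed this test. The PCDHB5 call was lost when any of 5 libraries was left out (adjusted p = 0.0504 to 0.112, edgeR). It was also lost with an effective-length offset (adjusted p = 0.209, edgeR).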

How the results depend on the processing

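No called member changed direction under any alternative. Of 111 called results, 28 lost the call when 1 of the 15 libraries was left out and 17 under another alternative. With the effective-length offset fewer of all tested genes were called in every comparison. They were 3851 against 5823 with guides in p65 lines, and 31 against 143 for the difference of guide effects. Members called with guides ranged from 23 to 29 (29 in the report) in p65 lines and from 18 to 24 (23) in VP64 lines when 1 library was left out. Between p65 and VP64 without guides, 2 members were called, 4 without a count filter, 1 with the effective-length offset, and 1 to 3 with 1 library left out. For the difference of guide effects, 1 was called, 2 without a count filter, 0 with the offset and 0 to 2 with 1 library left out, the 2 without p65 guided replicate A. The PCDHA sum of the unguided p65 line was 1.59 times that without an activation domain by deposited TPM, against 1.49 by CPM. With a replicate block, 27 members were called with guides in p65 lines, 23 in VP64 lines, 2 and 11 between p65 and VP64 without and with guides, 24 (p65) and 22 (VP64) against no activation domain and 1 for the difference. The letters did not pair the samples. Members under about 1 CPM rest on few reads.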

Other observations

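Genes beside the protocadherin clusters on chromosome 5 were read with the same test. Of 17 protein-coding genes that are no members and lie within 200 kb of the span from the first PCDHA to the last PCDHG gene, 14 were tested. With guides 4 rose and 2 fell in p65 lines (log2 fold change -0.41 to 0.47, median 0.07), and 3 rose and 3 fell in VP64 lines (-0.39 to 0.36, median 0.04). These 6 of 14 in each pair are near the 38.9% (p65) and 40.6% (VP64) of all tested genes called. DIAPH1, a formin that nucleates actin filaments, was -0.41 in p65 and -0.36 in VP64 lines. TAF7, a subunit of the general transcription factor TFIID that lies between the clusters, was -0.20 and -0.17. RELL2 was 0.47 and 0.32, and ARAP3 0.22 and 0.27. Against the line without an activation domain, 5 of the 14 rose and 7 fell in the unguided p65 line (median -0.15). In the unguided VP64 line 4 rose and 4 fell (median -0.07). Of all tested genes 49.7% (p65) and 47.6% (VP64) were called there. TAF7 (0.63 in the p65 and 0.64 in the VP64 line) and FCHSD1 (0.75 in both) were among those that rose. CD14 had the lowest values (-1.44 and -1.72), and IK, WDR55 and HDAC3 also fell in both, all called by edgeR. The window was chosen after values had been seen.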
